A study of Bos taurus with 30 samples.

Results

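The cows described here all developed cytological endometritis (CYTO), the sub-clinical form of uterine disease, by 21 days postpartum (DPP), and they are divided by how inflamed the uterus already was at 7 DPP. Of the 30 libraries in the series, 9 came from these cows: 4 had a high share of polymorphonuclear cells (PMN, mostly neutrophils) at 7 DPP, and 5 were under the cytological threshold of 18% PMN. In the high PMN cows inflammation was present at both examinations. In the low PMN cows it was below the threshold at 7 DPP and above it at 21 DPP. The comparison is of CYTO high PMN cows (s1944, s2039, s2064 and s2184) with CYTO low PMN cows (s1183, s2167, s2178, s2382 and s2421). A further 10 cows which stayed healthy to 21 DPP give a level measured in the same way. They were not divided by PMN here, though by the study's count 5 had high PMN at 7 DPP and 5 did not.

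Each library is the polyadenylated RNA of the cells from 1 uterine cytobrush of 1 Holstein-Friesian cow, taken at 7 DPP before any diagnosis. The cows were of mixed parity and came from 1 commercial farm, and cows with a difficult calving were not enrolled. A brush takes up surface and glandular epithelium, stroma and whatever immune cells are present, so fewer cells of a type and less RNA per cell cannot be told apart in these values. The question of the comparison is how the endometrium at 7 DPP differs between cows in which inflammation was already established and cows in which it was yet to appear.

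After calving, bacteria enter the uterus of nearly every cow, and neutrophils drawn in by chemokines such as CXCL8 clear them while the lining is rebuilt. Interleukin-1 and tumour necrosis factor, released once Toll-like receptors sense bacterial products, switch on NF-kB in neighbouring cells and call in more neutrophils. The response carries its own brakes: receptor antagonists, inhibitors of NF-kB, PD-L1 and IL-10. In a cow which recovers it subsides within weeks.

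The libraries held 15133926 to 26318967 counted reads in high PMN cows and 22947854 to 32430286 in low PMN cows, so that 1 read was worth 0.0308 to 0.0661 CPM, the unit of every level below (reads of a gene scaled to the total counted reads of its library). On the first principal component of log2(CPM + 1), which carried 42.2% of the variance, the high PMN cows scored between 27.6 and 51.5 and 4 of the low PMN cows between -24.5 and -14. Cow s1183, also low PMN, stood apart at -90.4, and at 68.4 on the second component, where the other low PMN cows lay between -47.8 and -22.9. Its marker levels for stroma and endothelium were far below those of the other CYTO cows compared, and its epithelial and glandular markers were the highest of the 9. Some healthy cows had a like pattern, and the deposit compares those named next with the low PMN CYTO cows. In s1340, s2224 and s2570 the mean log2(CPM + 1) was 3.616 to 4.995 for stroma (6.074 in s1183). For glandular markers it was 9.504 to 9.751 (9.331 in s1183). The cause was not tested. Where leaving out this cow changed the calls of a gene list, the calls without it are given beside the list.

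**Figure D1:**
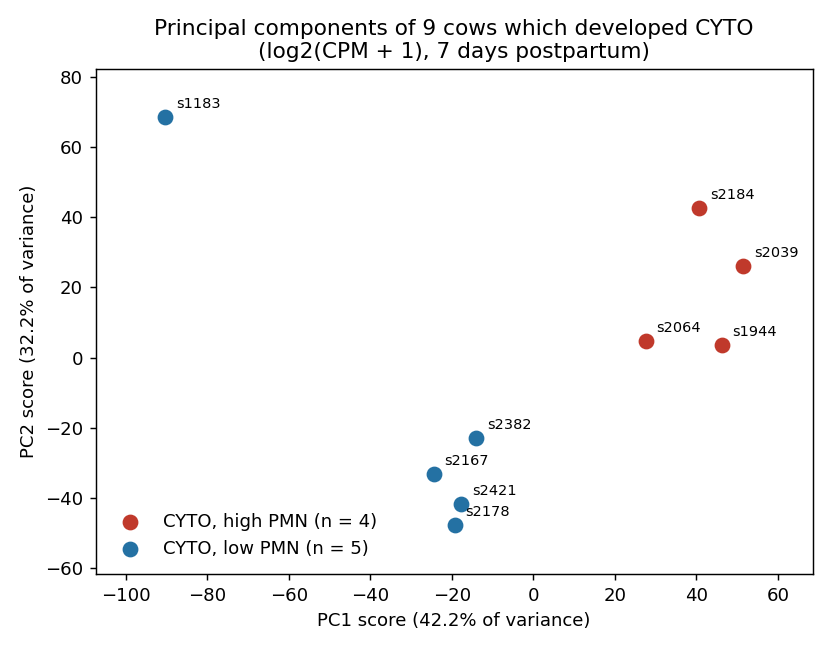
Scores of the 9 cows on the first (42.2% of variance) and second (32.2%) principal component of log2(CPM + 1), 1 point per cow, high PMN in red and low PMN in blue. The groups do not overlap on the first component, and cow s1183 lies away from the other 4 low PMN cows on both.

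Of 10443 genes tested, 911 (8.72%) differed between the groups: 555 (5.31%) rose and 356 (3.41%) fell in high PMN relative to low PMN cows. These shares are the background for the counts of called genes in each list below. A gene was called where limma's Benjamini-Hochberg adjusted p was below 0.05 and the difference of log2(CPM + 1), here named the log2 fold change, was larger than 1 in either direction. On this scale the risers moved much further: 86 of them exceeded a log2 fold change of 3, against 1 of the fallers. Adding 1 CPM shrinks the changes of genes at low levels in both directions. By edgeR the fallers CCDC190, COL4A5, GPM6A, LRIG3 and B4GALNT2 lay between -3.48 and -3.13, and the riser IL17A moved from 3.19 to 9.59. By limma the median log2 fold change was 1.71 over all 555 genes that rose and -1.24 over all 356 that fell. In 463 of the 555 every high PMN cow was above every low PMN cow, a separation found in 6.95% of all genes, and in 306 of the 356 every high PMN cow was below, found in 16.9% of all genes. The median log2 fold change over all genes was -0.14, and scaling by TMM moved it to 0.01. With that scaling 645 genes rose and 168 fell, so that rises made up 79.3% of the calls, against 60.9% without it. Without cow s1183, 609 rose and 549 fell. Without the high PMN cow s2039 the counts were 347 and 190, and without s2184 they were 423 and 228. When all 30 libraries shared 1 estimate of the spread in limma, no gene passed, the smallest adjusted p being 0.0543 and the counts at an unadjusted p under 0.05 being 552 higher and 1311 lower. Those 30 include 3 samples that the study later excluded for possible clinical metritis. edgeR's quasi-likelihood test on the recovered reads of the 9 cows called 692 higher and 200 lower.

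**Figure D2:**
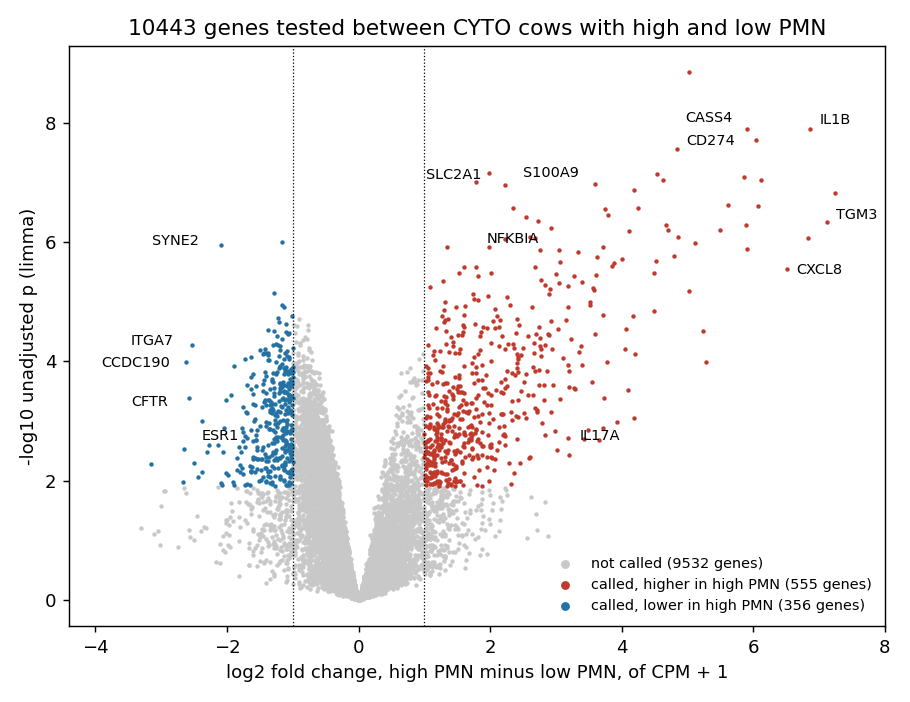
Each point is 1 of the 10443 genes tested, with its log2 fold change of CPM + 1 (high PMN minus low PMN) on the horizontal axis and its unadjusted limma p as -log10 on the vertical axis; dotted lines mark a log2 fold change of 1 in either direction. The 555 genes that rose (red) reach far larger changes than the 356 that fell (blue).

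Cytokines of the interleukin-1 family were far higher in high PMN cows. Beside the genes named by the fixed rule, list members such as IL18 are named to complete their lists, here and below, and were chosen after their values were seen. IL1B (ENSBTAG00000001321), the secreted form released after inflammasome cleavage, was at 1392, 2359, 2788 and 4056 CPM in high PMN cows and at 36.6, 20.3, 13.1, 12.7 and 25.7 CPM in low PMN cows. The lowest high PMN cow was thus well above the highest low PMN cow, and also above the highest of the 10 healthy cows, which ranged from 2.86 to 714 CPM with a median of 30.9 CPM. By limma IL1B rose by 6.87 on the log2 scale (standard error 0.38, adjusted p = 4.50e-05). IL1A (ENSBTAG00000010349), the sister cytokine that acts as an alarm signal from damaged cells, was at 266, 614, 594 and 790 CPM in high PMN cows, against 5.43, 11.8, 6.81, 4.44 and 8.36 CPM in low PMN cows (log2 fold change 6.04, standard error 0.34, adjusted p = 5.02e-05). The gene for the receptor antagonist that blocks both, IL1RN, rose as well, with 3634 to 8360 CPM in high PMN cows and 148 to 353 CPM in low PMN cows (log2 fold change 4.63). Of the 16 genes tested from the list of this family and the inflammasome, 9 rose and none fell, where 5.31% of all genes rose. Without s2039 or without s2184, 5 rose. NLRP3, the sensor of the best known inflammasome, averaged 118 ± 43.9 CPM in high PMN cows and 7.21 ± 3.39 CPM in low PMN cows (SD, n = 4 and 5). NLRP12, a related receptor of myeloid cells, averaged 28.6 ± 14.6 and 0.439 ± 0.103 CPM in the same groups. NLRP12, like IL17A, CCL20 and GPR84 below, was under 1 CPM in every low PMN cow and so passed the filter on low values only through the high PMN cows; all 11 such genes were called, so the call of such a gene adds no support to a list. The list was not uniform: IL18, a cytokine matured by the same caspase, had a log2 fold change of 0.07 and IL1R1, the signalling receptor, one of -0.50, and neither passed the test.

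The genes that draw in neutrophils and release them from the marrow came next. CXCL8 (listed as IL-8), the main neutrophil chemokine, was at 2462, 10379, 6183 and 7630 CPM in high PMN cows and at 165, 50, 19.2, 47.4 and 138 CPM in low PMN cows. Healthy cows spanned 3.41 to 2095 CPM, so that the highest of them came close to the lowest high PMN cow. CSF3, the granulocyte growth factor G-CSF, was at 21, 43.9, 21.6 and 16.8 CPM in high PMN cows, while 4 of the 5 low PMN cows had 0 to 2 reads and cow s1183 had 115 reads (3.55 CPM). IL17A (listed as IL17), a T-cell cytokine that induces both, had 63, 35, 519 and 478 reads in the 4 high PMN cows and 1, 0, 0, 0 and 1 in the 5 low PMN cows. Pooled over cows, its CPM was 870 times higher in high PMN cows, with an exact 95% interval of 240 to 7194 that covers counting error only. Its levels differed among the high PMN cows too, s2064 and s2184 having 19.7 and 31.6 CPM where s1944 and s2039 had 2.96 and 1.72 CPM. OSM, oncostatin M, a cytokine of the IL-6 family made by neutrophils and macrophages, rose with a log2 fold change of 6.08. IL6 itself ranged from 7.85 to 53.9 CPM in high PMN cows and from 1.35 to 19.6 CPM in low PMN cows, groups that overlap (adjusted p = 0.111). Of the 7 genes tested from this list, 4 rose, where 5.31% of all genes rose. The 4 include IL17A, which passed the filter only through the high PMN cows. The 3 others were IL6, LIF and IL23A. LIF, a cytokine of the IL-6 family, was at 111 CPM in cow s1183 and passed without it (log2 fold change 1.27, adjusted p = 0.0325). IL23A, which maintains IL-17 producing cells, lay higher in every high PMN cow (18.5 to 23.9 CPM) than in every low PMN cow (8.70 to 13.0 CPM), but by a log2 fold change of 0.83 that is under the size limit (adjusted p = 0.00805).

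**Figure D3:**
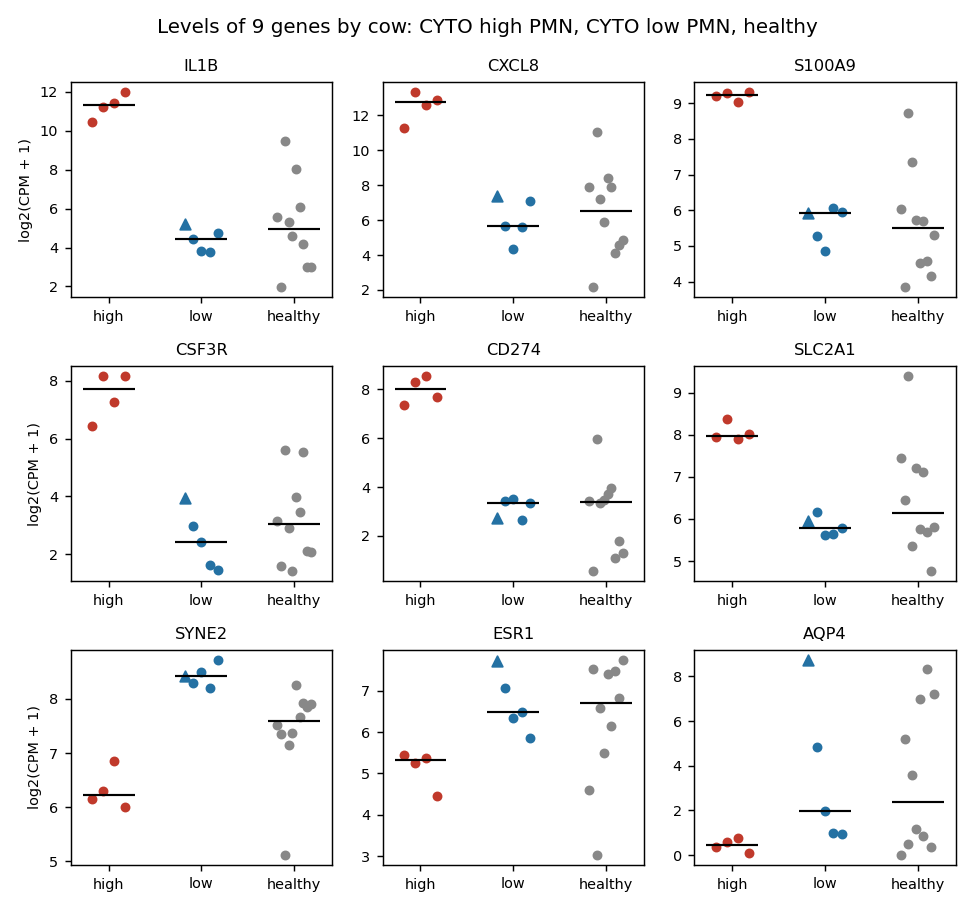
Levels of 9 genes as log2(CPM + 1), 1 point per cow: CYTO high PMN (4 cows, red), CYTO low PMN (5 cows, blue, with cow s1183 as a triangle) and healthy (10 cows, grey); the line is the group median. The 4 high PMN cows sit above all 5 low PMN cows for IL1B, CXCL8, S100A9, CSF3R, CD274 and SLC2A1 and below them for SYNE2, ESR1 and AQP4, while healthy cows spread over a wide range.

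Neutrophil transcripts were higher in the cows with more PMN on the cytology slide. S100A9 (ENSBTAG00000006505), a subunit of the antimicrobial calprotectin complex that fills the neutrophil cytoplasm, was at 589, 617, 526 and 633 CPM in high PMN cows and 59.5, 37.6, 28.1, 65.3 and 60.9 CPM in low PMN cows (log2 fold change 3.60, standard error 0.25, adjusted p = 8.77e-05). The 4 high PMN cows differed little from each other in this gene. Its partner S100A8 averaged 703 ± 222 CPM in high PMN cows and 54.9 ± 23.2 CPM in low PMN cows, and S100A12, a related alarmin, 2822 ± 1260 and 352 ± 149 CPM (SD, n = 4 and 5). CSF3R, the receptor for G-CSF, was at 86.5, 287, 154 and 284 CPM in high PMN cows, against 14.5, 6.94, 4.30, 2.09 and 1.74 CPM in low PMN cows. MCEMP1, a membrane protein of granulocytes and mast cells, averaged 24.5 ± 8.80 CPM in high PMN cows and 0.783 ± 0.373 CPM in low PMN cows. Of 19 neutrophil markers tested, 14 rose, where 5.31% of all genes rose. All 14 were higher in each high PMN cow than in each low PMN cow, a separation found in 6.95% of all genes. Among those that did not pass, ITGAM, CYBB, ALOX5AP and CYBA had log2 fold changes between 0.27 and 1.29, with overlapping groups, and are also made by macrophages; of these CYBA passed without cow s1183 (adjusted p = 0.0399). The mean log2(CPM + 1) of the list was 6.01 to 6.93 in high PMN cows, 3.97 to 4.45 in low PMN cows and 1.91 to 6.74 in healthy cows. Several inflammatory lists below were higher in the same cows as these markers, though not all. The means of the Toll-like receptor, interferon and antigen processing lists overlapped between the groups. The part of the neutrophil markers in the results of any list was not tested. Other defining markers, among them CXCR1, CXCR2 and the cathelicidins, were not analysed here.

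Markers of other immune cells moved less, and those of macrophages and monocytes rose about as often as all genes (5.31%). Of 16 macrophage and monocyte markers, 1 rose: SPP1, osteopontin, at 12449, 7734, 3856 and 4339 CPM in high PMN cows and 3440, 2134, 2331, 2003 and 3617 CPM in low PMN cows (log2 fold change 1.27, standard error 0.37, adjusted p = 0.0364). The call was lost without any one of 6 cows, and by edgeR it stood (adjusted p = 0.0259). CD14, the lipopolysaccharide co-receptor of monocytes, was 1009 to 1458 CPM in high PMN cows and 221 to 926 CPM in low PMN cows, without passing (adjusted p = 0.073). Without cow s1183 there were 2 calls, the second being C1QC (log2 fold change 1.02, adjusted p = 0.045). CD163, MRC1 and CSF1R, which mark tissue macrophages, had log2 fold changes of 0.77, 0.60 and 0.90 and did not pass either. PTPRC, the pan-leukocyte antigen CD45, averaged 121 ± 20.2 CPM in high PMN cows and 81.9 ± 37.2 CPM in low PMN cows (adjusted p = 0.155). Among 10 markers of T and NK lymphocytes, 3 rose: CD69, IL7R and IL2RB, of which CD69 is an early activation antigen that other leukocytes also carry. CD69 was at 85.4, 169, 249 and 442 CPM in high PMN cows, against 2.90, 2.14, 2.05, 1.22 and 1.38 CPM in low PMN cows (log2 fold change 6.12, adjusted p = 8.77e-05). The parts of the T-cell receptor complex did not rise: CD3D and CD3E had log2 fold changes of -0.04 and 0.09, and CD247 was lower in every high PMN cow (11 to 15.4 CPM) than in every low PMN cow (16.3 to 23.1 CPM), a log2 fold change of -0.62. Of the lists for B and plasma cells and for mast cells and eosinophils 1 gene each was tested and neither passed, and no erythrocyte gene was tested.

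**Figure D4:**
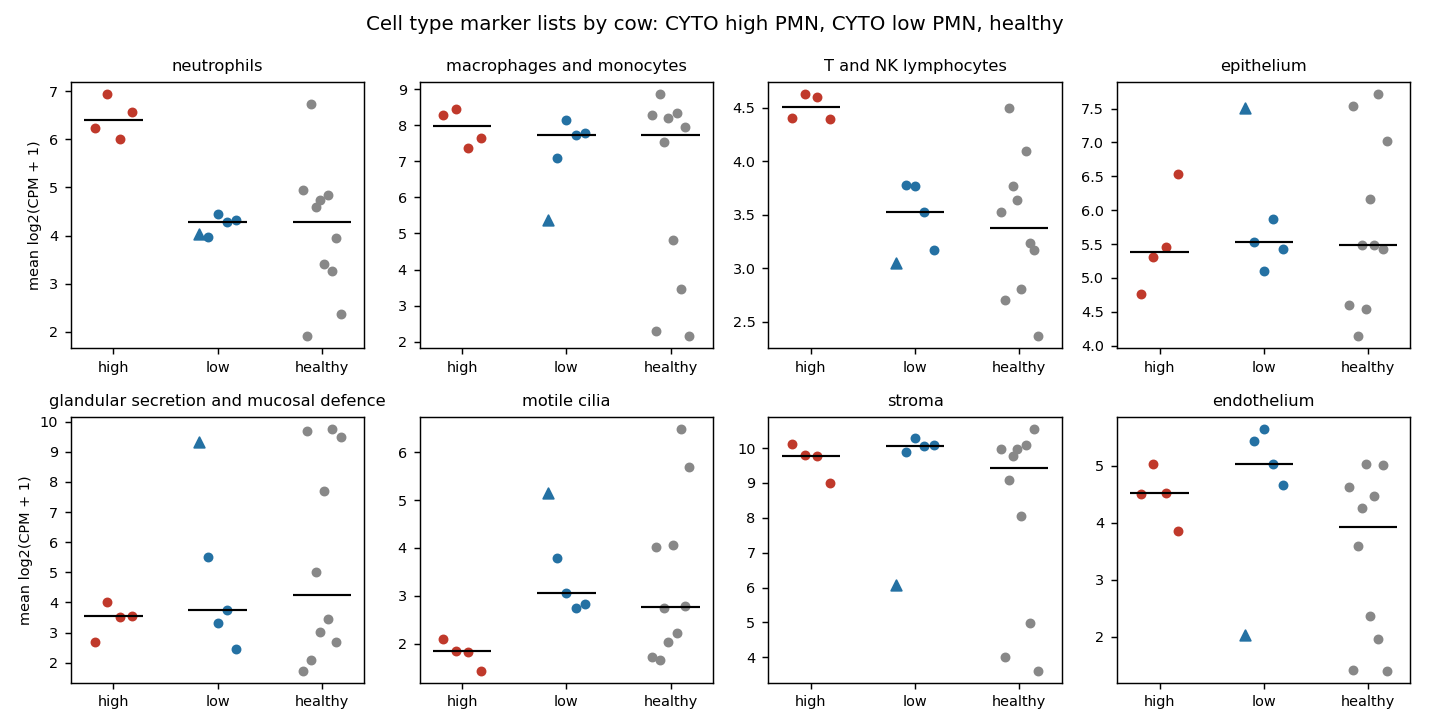
Mean log2(CPM + 1) of the tested markers of 8 cell types or secretory states, 1 point per cow, for CYTO high PMN (4 cows, red), CYTO low PMN (5 cows, blue, cow s1183 as a triangle) and healthy cows (10, grey), with group medians as lines. Neutrophil and lymphocyte lists lie higher, and the motile cilia list lower, in all high PMN cows than in all low PMN cows, and cow s1183 is lowest of the 9 CYTO cows for stroma and endothelium and highest for epithelium and glandular secretion.

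Genes downstream of TNF and NF-kB rose almost as a block, 17 of 19 tested where 5.31% of all genes rose. Their median log2 fold change was 1.62. TNF was at 20.4, 28.9, 19.5 and 33.6 CPM in high PMN cows and 1.54, 3.09, 3.97, 4.14 and 2.91 CPM in low PMN cows (log2 fold change 2.69, standard error 0.27, adjusted p = 4.99e-04). Healthy cows did not exceed 7.19 CPM, below every high PMN cow. The inhibitors that NF-kB induces against itself were among the largest changes, NFKBIA averaging 797 ± 323 CPM in high PMN cows and 90.3 ± 18.8 CPM in low PMN cows, and TNFAIP3, the ubiquitin-editing enzyme A20, 117 ± 48.2 and 10 ± 2.57 CPM. RELB, a subunit of the non-canonical pathway, rose with a log2 fold change of 1.62. The 2 that did not pass were REL (log2 fold change 0.19) and ICAM1 (1.28, adjusted p = 0.101), an adhesion molecule that was nevertheless higher in every high PMN cow.

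The sensing receptors did not move one way. Of 15 genes tested, TLR2, TLR4, MyD88, TICAM1 and NOD2 rose. TLR4, the receptor for lipopolysaccharide, was at 353, 553, 587 and 611 CPM in high PMN cows and 153, 142, 175, 166 and 245 CPM in low PMN cows (log2 fold change 1.57, standard error 0.21, adjusted p = 0.00261). TLR2, which senses bacterial lipoproteins, averaged 245 ± 79.4 CPM in high PMN cows and 74.1 ± 24.3 CPM in low PMN cows. MyD88, the adaptor of both, averaged 256 ± 98.0 and 87.2 ± 7.87 CPM. TLR3 and TLR5, sensors of double-stranded RNA and flagellin, fell with log2 fold changes of -1.16 and -1.45, but these calls were not firm. With TMM or RLE scaling, or by edgeR, 1 gene of the list was called lower, and 0 without any one of s2039, s2184, s2167, s2178 and s2421. With the fold changes of this list on both sides of 0, its median of -0.30 describes neither part.

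Chemokines for mononuclear cells divided in another way. CCL20, CCL5 and CCL22 rose, 3 of 11 tested against 5.31% of all genes. CCL20 was one of the genes that passed the filter only through the high PMN cows. Without cow s1183 CX3CR1, a chemokine receptor, was called lower (log2 fold change -1.91, adjusted p = 0.00306). CCL20, which attracts lymphocytes and dendritic cells, was at 6.63, 16.4, 20.3 and 41.8 CPM in high PMN cows, and at 0.648 CPM or less in every low PMN cow. CCL5, the T-cell chemokine RANTES, was at 137, 343, 66.5 and 39.7 CPM in high PMN cows and 2.58 to 8.61 CPM in low PMN cows, with s2039 far above s2184. CXCL9 and CXCL10, induced by interferon gamma, had log2 fold changes of 0.28 and 0.08 and did not pass, and CCL2, the monocyte chemokine, one of 0.31. Interferon-stimulated genes rose in 10 of 21 cases, none falling, where 5.31% of all genes rose. Without s2039 5 of them rose, beside 347 of all genes, and without s2184 13 rose, beside 423. The mean log2(CPM + 1) of the list in s2184 was 5.58, inside the 5.08 to 5.62 of the low PMN cows. ISG15, a ubiquitin-like modifier, was at 283, 394, 257 and 112 CPM in high PMN cows and 28, 11.8, 15.8, 35.8 and 16.1 CPM in low PMN cows (log2 fold change 3.52, standard error 0.41, adjusted p = 0.00129). IRF7, the regulator of type I interferon, rose with a log2 fold change of 2.89. Of 10 genes for antigen processing, TAP1, a peptide transporter, was the one that rose (log2 fold change 1.23, adjusted p = 0.014), and without cow s1183 there were 3.

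Several inhibitory signals also rose. CD274, the checkpoint ligand PD-L1, was at 161, 313, 373 and 205 CPM in high PMN cows and 5.67, 9.68, 10.3, 5.32 and 9.12 CPM in low PMN cows (log2 fold change 4.84, standard error 0.29, adjusted p = 5.75e-05). All 4 high PMN cows also exceeded the 10 healthy cows, whose highest was 62.1 CPM. SOCS3, the feedback inhibitor of STAT3 signalling, averaged 158 ± 68.7 CPM in high PMN cows and 6.18 ± 4.07 CPM in low PMN cows. IL10, the main anti-inflammatory cytokine, was at 3.62, 11.7, 16.5 and 21.1 CPM in high PMN cows and 0.278 to 2.17 CPM in low PMN cows (log2 fold change 2.66, adjusted p = 0.00781). TGFB1 rose with a log2 fold change of 1.2. These were 4 of 8 genes tested, where 5.31% of all genes rose. IDO1, which depletes tryptophan, and TGFB2 did not pass, with log2 fold changes of -0.23 and -0.32.

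Of 21 genes of glycolysis and the hypoxia response, 17 rose and none fell, and in 20 every high PMN cow was above every low PMN cow, against 6.95% of all genes. The median log2 fold change was 1.56. SLC2A1 (ENSBTAG00000009617), the glucose transporter GLUT1, was at 244, 328, 237 and 259 CPM in high PMN cows and 61.1, 70.4, 48.1, 48.7 and 53.9 CPM in low PMN cows (log2 fold change 2.23, standard error 0.15, adjusted p = 8.77e-05). LDHA, which makes lactate, averaged 1135 ± 182 CPM in high PMN cows and 328 ± 56.6 CPM in low PMN cows. BNIP3 and DDIT4, both induced by HIF-1, rose with log2 fold changes of 2.54 and 3, and HIF1A itself with 1.04 (adjusted p = 0.04), which was 0.85 and under the size limit without cow s1183. Without that cow 15 genes of the list rose, PKM being at 0.99. The members that did not reach a call were PDK1, HK1, P4HA1 and PFKP, all with log2 fold changes between 0.55 and 0.95. Healthy cows covered both groups for SLC2A1, from 26.0 to 672 CPM with a median of 70.7 CPM.

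**Figure D5:**
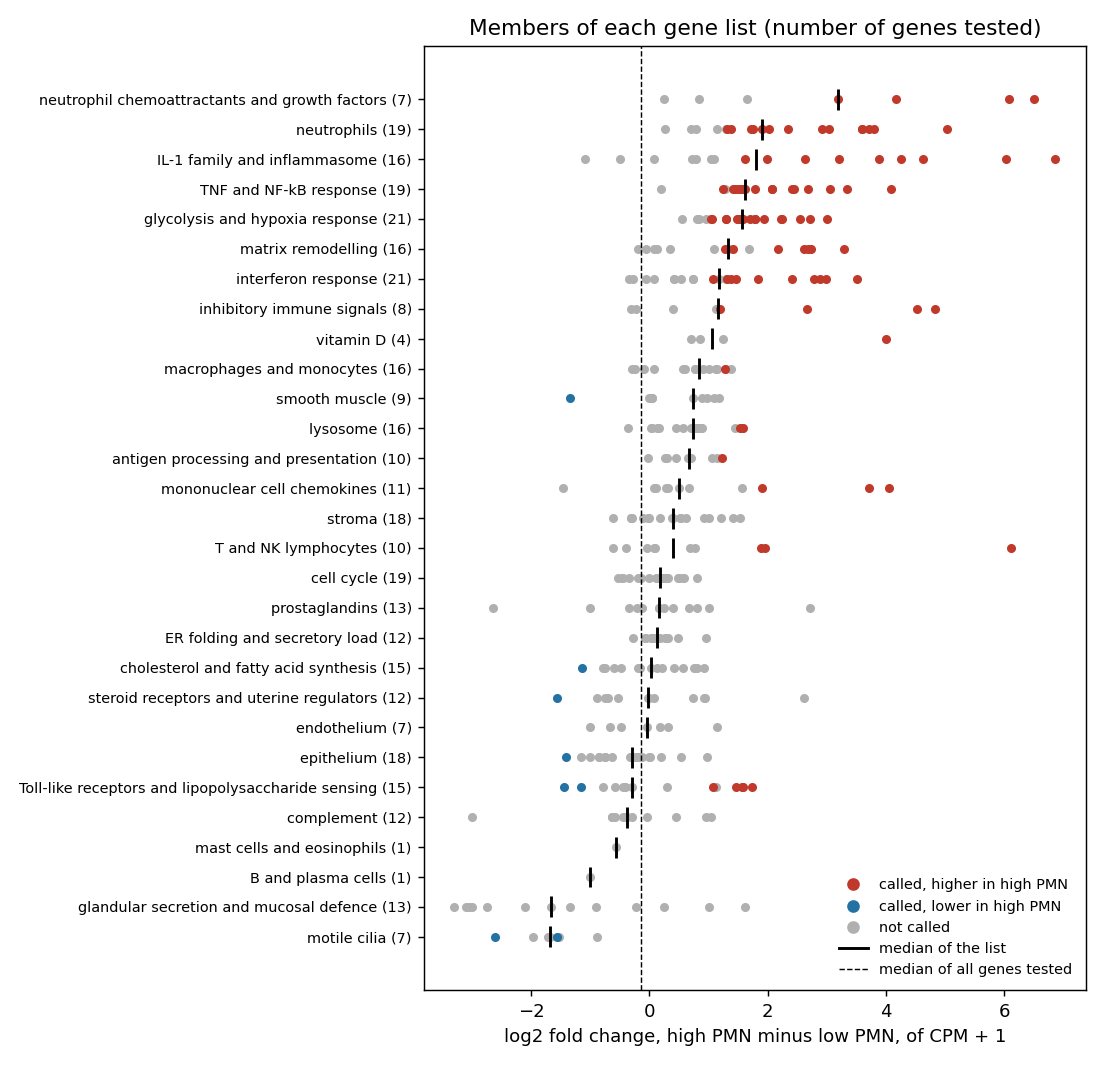
Log2 fold change of CPM + 1 (high PMN minus low PMN) of every tested member of each gene list, 1 point per gene, red where it rose, blue where it fell and grey where it was not called; thick ticks are list medians and the dashed line is the median of all 10443 genes (-0.14). Lists for neutrophils, interleukin-1, NF-kB and glycolysis have medians between 1.56 and 1.90, while the motile cilia and glandular lists lie lowest. The neutrophil recruitment median of 3.19 is the value of IL17A, which passed the filter only through high PMN cows. By edgeR that median was 5.16.

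Matrix-degrading enzymes rose in part, 7 of 16, where 5.31% of all genes rose. MMP9, the gelatinase stored in neutrophil granules, was at 781, 645, 297 and 269 CPM in high PMN cows and 61.5, 128, 42.5, 38.3 and 13.6 CPM in low PMN cows (log2 fold change 3.29, standard error 0.59, adjusted p = 0.00701). PLAU and PLAUR, urokinase and its receptor, averaged 1515 ± 575 and 609 ± 437 CPM in high PMN cows and 242 ± 105 and 86 ± 31 CPM in low PMN cows. TIMP1, an inhibitor of these enzymes, rose with a log2 fold change of 1.27. MMP2 and MMP14, which stromal cells make, had log2 fold changes of 1.31 and 1.35 with overlapping groups and did not pass. The lysosomal cathepsins CTSL and CTSZ rose, 2 of 16 lysosomal genes where 5.31% of all genes rose, CTSL averaging 106 ± 24.4 CPM in high PMN cows and 36.1 ± 12.1 CPM in low PMN cows. The call of CTSZ was lost without any one of 6 cows, which left 1 rise in the list. Without cow s1183 there were 3, with CTSH at a log2 fold change of 1.03. CYP27B1, which makes the active form of vitamin D, was at 42.1, 46.0, 105 and 38.2 CPM in high PMN cows and 0.956, 4.56, 1.67, 2.44 and 3.42 CPM in low PMN cows (log2 fold change 4, standard error 0.38, adjusted p = 4.24e-04). The receptor VDR and the degrading enzyme CYP24A1 had log2 fold changes of 0.86 and 0.70 and did not pass, although without cow s1183 VDR did (1.2, adjusted p = 0.0435) and so did RXRA, the partner of the receptor (1.44, adjusted p = 0.034).

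The 12 largest rises among genes with a symbol included several outside these lists. TGM3 (ENSBTAG00000001785), a transglutaminase of cornifying epithelium, led them with 576, 1337, 1779 and 4431 CPM in high PMN cows and 23.5, 14.0, 8.15, 5.10 and 7.89 CPM in low PMN cows (log2 fold change 7.12, standard error 0.58, adjusted p = 2.05e-04). SERPINB4, a protease inhibitor of squamous epithelium, ranged from 11.6 to 414 CPM in high PMN cows and from 0.125 to 1.70 CPM in low PMN cows. MEFV, the pyrin inflammasome sensor of granulocytes, was at 115, 256, 406 and 1193 CPM in high PMN cows and 1.09 to 4.47 CPM in low PMN cows. In all 3 genes s2184 was the highest cow and s1944 the lowest of the high PMN cows. GPR84, a receptor for medium-chain fatty acids on myeloid cells, was at 31.5 to 237 CPM in high PMN cows and under 1 CPM in every low PMN cow, at 0.261 to 0.793 CPM. PLEK, the platelet and leukocyte protein pleckstrin, averaged 1031 ± 652 CPM in high PMN cows and 14.2 ± 2.38 CPM in low PMN cows. CASS4, an adaptor of focal adhesions, averaged 193 ± 96.6 and 2.10 ± 0.922 CPM, and SDS, serine dehydratase, 2216 ± 1100 and 65.3 ± 44.3 CPM.

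The falls were smaller than the rises, and cow s1183 was often the highest of the low PMN cows in them. SYNE2 (ENSBTAG00000025450), which ties the nucleus to the cytoskeleton, was at 69.8, 78.2, 115 and 63.6 CPM in high PMN cows and 342, 311, 361, 292 and 421 CPM in low PMN cows (log2 fold change -2.09, standard error 0.19, adjusted p = 3.11e-04). Here cow s1183 lay with the rest of its group. ITGA7, a laminin-binding integrin, averaged 5.94 ± 1.58 CPM in high PMN cows and 42.1 ± 18.6 CPM in low PMN cows. CFTR, the chloride channel of secretory epithelium, was at 5.12, 13.1, 18.6 and 8.66 CPM in high PMN cows and 190, 47.2, 62.8, 56.2 and 40.0 CPM in low PMN cows (log2 fold change -2.57, standard error 0.48, adjusted p = 0.0083). The groups stayed apart with cow s1183 set aside, at -2.20. CCDC190, LRIG3 and BAMBI fell with log2 fold changes of -2.62, -2.38 and -2.13; BAMBI is a decoy receptor for BMP and activin signals. MOXD1, OGN, COL4A5, GPM6A, LRP2 and B4GALNT2 complete the 12 largest falls. These last 6 calls are less firm: each was lost without at least 3 of the 9 cows in turn, and for MOXD1, GPM6A, LRP2 and B4GALNT2 also after TMM scaling.

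Of 7 motile cilia genes tested, CCDC190 and LRRC6 fell and all 7 had negative fold changes, with a median log2 fold change of -1.69. Over all 10443 genes 3.41% fell, and 6220 had negative fold changes. LRRC6, an assembly factor for the dynein arms, was at 3.01, 2.21, 2.20 and 2.31 CPM in high PMN cows and 27.4, 8.29, 6.39, 5.93 and 7.05 CPM in low PMN cows (log2 fold change -1.57, adjusted p = 0.0259), and its call was lost without any one of 4 cows. AK7, an adenylate kinase of the axoneme, was at 1.6 to 2.97 CPM in high PMN cows and 4.40 to 39.2 CPM in low PMN cows (adjusted p = 0.0551, and 0.0237 without cow s1183). FOXJ1, the regulator that defines multiciliated cells, was not analysed here. General epithelial genes showed no such pattern. Of 18 tested, 1 fell, MAL2, a transport protein of the apical membrane, averaging 34.8 ± 10.8 CPM in high PMN cows and 105 ± 78.2 CPM in low PMN cows, a call that was lost after TMM scaling. CDH1, E-cadherin, was at 47.6, 58.8, 88.7 and 175 CPM in high PMN cows and 704, 164, 128, 132 and 105 CPM in low PMN cows. With s1183 at 704 CPM and s2184 inside the range of the other low PMN cows, the difference did not pass (adjusted p = 0.166). KRT18 and MUC1 had log2 fold changes of -0.13 and -0.20.

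The glandular and mucosal defence genes had a median log2 fold change of -1.66 but none of 13 tested passed in limma or edgeR, and low PMN cows differed widely from each other. AQP4, a water channel, was at 0.282, 0.491, 0.722 and 0.0661 CPM in high PMN cows and 427, 27.2, 2.93, 1 and 0.945 CPM in low PMN cows, so that the groups did not overlap but the test was not passed (adjusted p = 0.155). NTS, neurotensin, was at 0.423 to 2.13 CPM in high PMN cows and at 1053, 43.6, 6.90, 1.66 and 2.98 CPM in low PMN cows. CXCL17, a mucosal chemokine, was at 0.228 to 2.01 CPM in high PMN cows and 874, 19.0, 3.43, 1.87 and 0.400 CPM in low PMN cows. LTF (listed as LF), the iron-binding lactoferrin, reached 30087 CPM in cow s1183 and lay between 102 and 1366 CPM in the other low PMN cows, while the high PMN cows had 354 to 1775 CPM (adjusted p = 0.66). SLPI, an inhibitor of neutrophil elastase, ranged over 4.51 to 84.9 CPM in high PMN cows and 0.363 to 125 CPM in low PMN cows. Without cow s1183 the median of the list was -0.50 and 1 gene was called lower, CFI, complement factor I (log2 fold change -2.02, adjusted p = 0.0409). DESeq2 with all 9 cows also called 1 lower. Several of these genes were picked by the study from these samples, so the list is not independent evidence of a direction.

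Stroma and smooth muscle did not separate the groups. None of 18 stromal genes passed, and without cow s1183 FBN1, fibrillin, was called lower (log2 fold change -1.03, adjusted p = 0.0222). Their median log2 fold change was 0.39 with cow s1183 and -0.38 without it, and that cow's mean log2(CPM + 1) over the list was 6.07 where the other low PMN cows had 9.87 to 10.28 and the high PMN cows 9 to 10.11. VIM, vimentin, was at 3912, 3104, 2162 and 1134 CPM in high PMN cows and 533, 1607, 4092, 4791 and 4093 CPM in low PMN cows. Of 9 smooth muscle genes SYNM, an intermediate filament protein, fell, a call lost after TMM scaling. Without cow s2167, 2 genes of that list were called higher and 0 lower. Endothelial genes had no call in 7, and 3 fell once s1183 was left out.

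Among steroid receptors and uterine regulators, ESR1, the oestrogen receptor, fell. It was at 42.9, 37.3, 40.4 and 20.8 CPM in high PMN cows and 210, 133, 79.9, 89.5 and 57.2 CPM in low PMN cows (log2 fold change -1.56, standard error 0.37, adjusted p = 0.0178), and it lost the call without the high PMN cow s2184. IGFBP1, a decidual binding protein for insulin-like growth factors, was at 194 to 467 CPM in high PMN cows and 3.85 to 147 CPM in low PMN cows. By limma IGFBP1 did not pass with cow s1183, its lowest cow, included (adjusted p = 0.0653), and passed without it (adjusted p = 0.00982). With cow s1183 included, DESeq2 called it higher (log2 fold change 2.22, adjusted p = 0.0101) and edgeR did not (adjusted p = 0.071). Without that cow HOXA10 and HOXA11, regulators of uterine patterning, were also called lower, with log2 fold changes of -1.39 and -1.02. PGR, the progesterone receptor, was not analysed here. PTGS2, the inducible cyclooxygenase, split the high PMN cows, with 331, 354, 1725 and 4486 CPM there and 7.46, 452, 173, 764 and 146 CPM in low PMN cows (adjusted p = 0.153). PTGIS and PTGS1, for prostacyclin synthase and the constitutive cyclooxygenase, were lower in every high PMN cow but not called, with adjusted p of 0.0518 and 0.0494 and a PTGS1 change just inside the size limit. PTGIS passed without cow s1183 (adjusted p = 0.04). None of 13 prostaglandin genes was called by limma, and edgeR called 1 lower.

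Cell cycle genes (0 of 19), complement (0 of 12) and endoplasmic reticulum folding (0 of 12) had no gene called by limma; edgeR called 0, 0 and 1. Without cow s1183 limma called CD55, which protects cells from complement, higher (log2 fold change 1.26, adjusted p = 0.0152), CFI and the receptor C3AR1 lower (-2.02 and -1.25), and CRELD2 of the endoplasmic reticulum higher (1.02, adjusted p = 0.0282). RRM2, a subunit of ribonucleotide reductase needed for DNA synthesis, was at 17.7 to 26.4 CPM in high PMN cows and 5.37 to 17.5 CPM in low PMN cows (adjusted p = 0.0832). CD59, which protects cells from the complement pore, was lower in every high PMN cow by a log2 fold change of -0.64, and C2 was higher in every high PMN cow by 0.45. Of 15 genes of cholesterol and fatty acid synthesis ELOVL6, a fatty acid elongase, fell (log2 fold change -1.15), but not by edgeR, DESeq2 or after TMM scaling. INSIG1, a brake on cholesterol synthesis, passed without cow s1183 (1.15, adjusted p = 0.0108). HMGCS1 and FDFT1 of the cholesterol pathway were lower by -0.79 and -0.60, under the size limit.

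Relative to the 10 healthy cows, the high PMN cows stood further out than the low PMN cows did. In 112 of the 10443 genes (1.07%) all 4 high PMN cows exceeded all healthy cows, and 101 of these were among the 555 that rose. The 5 low PMN cows all exceeded the healthy cows in 4 genes (0.0383%) and were never all below them. The high PMN cows were all below the healthy cows in 9 genes (0.0862%), none of them called. These counts are a description, since groups of 4 and 5 do not separate from 10 equally often and the healthy cows varied widely.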

How the data were processed

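RNA from endometrial cytobrushes taken at 7 DPP was made into TruSeq Stranded mRNA libraries and sequenced from 1 end. After trimming, the authors used STAR for alignment to the UMD3.1 genome, retained uniquely mapped reads, counted these over Ensembl protein-coding genes with featureCounts and dropped genes of low expression. The deposited values are CPM, made by the authors by dividing each gene's count by the library's total without a scaling factor, and the submitters' notes name R 3.3.2 and edgeR 3.18.0. The tables' own fold changes and p-values, from the authors' comparisons, were not used. Which library was in which sequencing pool is not given in the sources used here, so pools could not be modelled.

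The division by PMN at 7 DPP was taken as given for these cows, and each cow is 1 replicate. A gene entered the test when 4 or more of the 9 libraries reached 1 CPM. The test was made with limma 3.58.1 (trended eBayes) in R 4.3.3 on log2(CPM + 1), with no covariate, and p was adjusted by Benjamini-Hochberg over all 10443 genes. Of these, 11 passed the filter only through high PMN cows, all 11 being called. Every deposited value was a whole multiple of the value of 1 read (100% within 0.01 reads), so edgeR 4.0.16 and DESeq2 1.42.0 were run on recovered reads as alternatives; 7 of the 9 libraries held under 100 values of at most 20 reads, which limits that check at the low end. Other alternatives were the pseudocount, the filter, TMM and RLE factors, array weights, all 30 libraries in 1 fit and each cow left out.

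The genes named are the 12 with the largest change in each direction among called genes with a symbol, up to 4 of smallest p per list, and a fixed set of inflammatory and epithelial genes; a few results are not reported here. The comparison, the 30 gene lists and these rules were chosen with earlier results of these data known. The study had already named list members such as IL1A, TNF, NFKBIA, CSF3, IL17A, CD274, CD69 and CYP27B1. It found them higher in high PMN CYTO cows than in healthy cows with high PMN. The inflammatory lists that hold them are therefore not independent evidence of a direction. The scripts were tested on simulated data.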

Additional observations from a re-analysis of the deposited data

Results flagged for a closer look

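In 58 sets of gene list means and 96 sets of named gene levels, 1 per group, the highest or lowest cow was compared with the rest of its group by Dixon's criterion, which chance exceeds in about 1 in 20; 5 list sets and 8 gene sets exceeded it, 9 of these through the low PMN cow s1183. On the log2(CPM + 1) scale its mean was 6.07 for stroma (9.87 to 10.28 in the other low PMN cows), 2.02 for endothelium (4.67 to 5.64), 5.75 for matrix remodelling (7.44 to 7.76) and 4.37 for steroid receptors and uterine regulators (5.48 to 5.63). In single genes it was high, with 9.46 for CDH1 (6.73 to 7.37 in the others), 9.05 for KRT18 (6.2 to 6.69), 7.58 for CFTR (5.36 to 5.99), 2.18 for CSF3 (0 to 0.12) and 1.86 for OSM (0.37 to 0.8).

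The other 4 sets each had another cow apart. High PMN cow s2184 was at 5.24 for cholesterol and fatty acid synthesis (4.52 to 4.64 in the other high PMN cows) and at 1.48 for GPM6A (2.7 to 2.73). High PMN cow s2039 was at 10.79 for LTF (8.47 to 8.74). Low PMN cow s2421 was at 7.3 for MOXD1 (4.17 to 4.88 in the other low PMN cows).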

How the results depend on the processing

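Against 555 genes higher and 356 lower in high PMN cows, TMM factors left 168 lower, RLE factors 170 and edgeR 200, DESeq2 gave 865 higher, and array weights gave 918 higher and 765 lower. One fit over all 30 libraries called 0 in both directions, though 739 of the 911 called genes had an unadjusted p under 0.05 in it; the cause was not tested. Leaving out each cow in turn gave 347 to 679 higher and 190 to 549 lower, the lowest of both without s2039 and the most lower without s1183. Rises made up 60.9% of calls, 79.3% with TMM, 79.1% with RLE, 77.6% with edgeR and 71.5% with DESeq2. No direction of a named called gene reversed. Of the 73 named genes called, 60 kept the call without each of the 9 cows in turn, and the 30-library fit called none. List medians moved beyond the spread between cows in 29 list and setting pairs and did not in 493. Without s1183 the median changed sign for epithelium (0.08), stroma (-0.38) and smooth muscle (-0.06). No paired analysis was possible because each cow is in 1 group and the groups share no replicate number. Genes below the authors' expression filter were not analysed here, and with 4 and 5 cows a gene that misses the threshold is not shown to be equal.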

Other observations

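The gene groups here were chosen after their values were seen and are given as descriptions. Of 7 tested genes of arginine, itaconate and tryptophan metabolism, 5 rose in high PMN cows and none fell, where 5.31% of all genes rose. NOS2, the inducible nitric oxide synthase, was at 774, 1327, 643 and 698 CPM in high PMN cows and 25.4, 49.5, 25.6, 28.5 and 52.8 CPM in low PMN cows (limma log2 fold change 4.54, adjusted p = 8.77e-05). ACOD1, which makes itaconate in activated macrophages, averaged 229 ± 92.2 CPM in high PMN cows and 12.6 ± 6.4 CPM in low PMN cows. ARG2, KMO and GCH1 rose as well, GCH1 supplying the cofactor of NOS2.

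Of 11 tested receptors and co-receptors for bone morphogenetic proteins and activins, BMPR1A, BMPR1B, ACVR2A, TGFBR3 and BAMBI fell and none rose, and the count that fell was also 5 with TMM scaling. Without cow s1183 ACVR1B was called higher (limma log2 fold change 1.25, adjusted p = 0.00932). ACVR2A was at 15.3, 14.6, 26.6 and 15.5 CPM in high PMN cows and 35.7, 44.3, 54.7, 43.8 and 57.6 CPM in low PMN cows. Of 25 tested genes of intraflagellar transport and the ciliary transition zone, 10 fell, and 7 with TMM scaling, where 3.41% of all genes fell without that scaling and 168 of 10443 with it. Of 29 genes of branched-chain amino acid and fatty acid oxidation 3 fell, 2 with TMM scaling and 2 without cow s1183, among them ACAT1, a mitochondrial thiolase, at 45.1 ± 3.12 CPM in high PMN cows and 103 ± 8.12 CPM in low PMN cows (SD, n = 4 and 5). Of 140 genes named ZNF and a number 19 fell, beside 3.41% of all genes. With TMM scaling 11 fell, beside 168 of 10443, and without cow s1183 29 fell, beside 549 of all genes tested.

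Cow s1378, labelled sub-clinical but outside both groups, had 15762 CPM of IL1B, 7584 CPM of TGM3 and 2002 CPM of S100A9, each above every cow of both groups. In other genes it was not the highest, with 136 CPM of CD274, 108 CPM of SLC2A1, 505 CPM of NOS2 and 6.55 CPM of IL17A, the first 3 of these below every high PMN cow.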
